A study of Homo sapiens with 6 samples.

Results

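Collagen chains and the enzymes that modify them were followed in MDA-MB-231 cells with and without depletion of the transcription factor SOX4. The members were all probes whose symbol is that of a collagen chain (such as COL7A1) or of a prolyl hydroxylase subunit (P4HA1, P4HA2, P4HA3, P4HB), a prolyl 3-hydroxylase (LEPRE1, LEPREL1), a lysyl hydroxylase (PLOD1, PLOD2, PLOD3), a lysyl oxidase (LOX, LOXL1, LOXL2, LOXL3, LOXL4) or the collagen chaperone SERPINH1. They made up 58 of the 31426 gene symbols of the chip and 92 of its 47322 probes, 70 for 43 collagen chain symbols and 22 for 15 enzyme and chaperone symbols. MDA-MB-231 is a human breast cancer line of triple-negative, mesenchymal type. The control cells carried a scrambled short hairpin RNA (shRNA) and the knockdown cells carried an shRNA against SOX4. Both were transduced and grown in DMEM with fetal bovine serum, and the knockdown rests on 1 hairpin. Total RNA from 3 samples of each group was read on Illumina HumanHT-12 v4 expression BeadChips. Whether those samples came from separate cultures is not labelled, so the p-values rest on a spread that may be technical.

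Collagens are secreted or membrane-bound proteins in which chains wind into a helix, and they form fibrils, networks and anchoring structures of the extracellular matrix. In the endoplasmic reticulum, prolyl and lysyl hydroxylases modify the chains and SERPINH1 stabilises the folded helix. After secretion, lysyl oxidases crosslink the molecules, which stiffens the matrix around breast tumours. Basement membrane collagens, anchoring fibrils and the transmembrane collagens link epithelial cells to the matrix beneath them.

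The target was lower in the knockdown. The log2 signal of the SOX4 probe was 7.71, 8.0 and 7.96 on the scrambled arrays 1, 2a and 2b, and 5.22, 5.75 and 5.42 on the SOX4 shRNA arrays 1, 2 and 3, an order kept throughout. (The arrays 2a and 2b share one heading in the deposited table.) An array detected between 15197 and 16187 probes, and 6 arrays are few, which sets the precision. Of the markers of the line, VIM and CD44 were detected on every array by at least 1 probe, while CDH1, ESR1 and PGR were detected on none and ERBB2 was detected by 1 of its 3 probes. Both VIM probes were called lower in the knockdown in limma, with log2 differences of -0.23 and -0.34. The tested CD44 probes did not pass. Of 7 fibroblast marker genes, a possible source of collagen transcripts, PDGFRA, DCN, POSTN and THY1 were not detected on any array while PDGFRB was detected on the 3 scrambled arrays only, LUM on the 3 SOX4 shRNA arrays only and COL1A1 on 1 scrambled array. PDGFRB and LUM were each tested through 1 group only. PDGFRB was called lower (adjusted p = 0.0145, limma) and LUM did not pass. The summed deposited intensity of all 12 fibroblast probes ran from 1380 to 1448 on the scrambled arrays and from 1413 to 1434 on the SOX4 shRNA arrays. Most of these probes were undetected, so the sum is largely background and cannot show a small change in these genes. Leucocyte markers were detected for 2 of 5 genes (CD68 and LYZ) and endothelial markers for 1 of 4 (PECAM1). PTPRC, CD3D, LST1, CDH5, VWF and KDR were detected on no array. CD68 probe ILMN_1714861, the brightest of the leucocyte probes, rose by 0.21 (adjusted p = 0.0070, limma). Its deposited means were 1773 ± 88 on the scrambled and 2158 ± 94 on the SOX4 shRNA arrays (SD, n = 3). The other CD68 probes and the tested probes of LYZ and PECAM1 did not pass. The summed leucocyte intensity was 3916 to 4210 on the scrambled arrays and 4421 to 4590 on the SOX4 shRNA arrays, and its part in the results was not tested. The endothelial sum, over 4 probes of which 1 was tested and thus also largely background, was 461 to 478 and 460 to 489. In bulk RNA, fewer cells that express a gene and less of its RNA per cell cannot be told apart.

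Most collagen chain probes fell short of the detection filter, as did most probes of the chip. A probe was tested if its detection p was under 0.01 on at least 3 of the 6 arrays. By this filter 38 of the 92 member probes passed. They were 23 of the 70 chain probes, for 17 symbols, and 15 of the 22 enzyme and chaperone probes, for 11 symbols. Of all 47322 probes 33.2% passed, near the share of the chain probes. Of the 54 probes left out, 52 were detected on no array and 2 on 1 scrambled array only, those of COL1A1 and COL23A1. The 26 chain symbols without a tested probe included the fibrillar chains COL1A1, COL2A1, COL3A1, COL5A2, COL5A3 and COL11A1 and the basement membrane chains COL4A3, COL4A4 and COL4A6. LOXL1, LOXL2, LOXL3 and P4HA3 were the 4 enzymes without one.

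Of the 38 tested probes, 14 rose and 9 fell with the SOX4 hairpin, at an adjusted p under 0.05 in limma. Over all 15717 probes tested, 14.4% rose and 14.4% fell, 28.9% in all, against 36.8% and 23.7% of the member probes. Among chain probes 10 of 23 rose and 6 fell, and among enzyme and chaperone probes 4 of 15 rose and 3 fell. The median log2 difference, SOX4 shRNA minus scrambled, was 0.06 over the member probes and -0.01 over all probes. Called member probes had a median size of 0.64, against 0.39 for all called probes, a description only, since the members were chosen with earlier results known. A fold of at least 1.5 was reached by 14 called member probes, 12 of them for chains, where 7.15% of all probes did so. At least 2-fold was reached by 6, where 2.14% of all probes did so.

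A few of these counts rest on dim probes. The raised probes of COL6A2 and COL9A2, and 1 each of COL17A1 and COL1A2, were detected on every SOX4 shRNA array but on at most 1 scrambled array. These 4 were tested only because they were high in 1 group. Among the 34 member probes detected on all 6 arrays, 10 rose and 9 fell. Of all probes so detected, 14.9% rose and 15.1% fell, 30% in all. The 34 include 19 chain probes, of which 6 rose and 6 fell. A fold of at least 1.5 was reached by 11 called probes of the 34, and at least 2-fold by 4. The share of all probes detected on 6 arrays that reached these folds was not computed. The groups did not overlap for 26 of the 38 member probes, where 40.7% of all probes did not overlap. No gene had probes called in opposite directions.

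**Figure D1:**
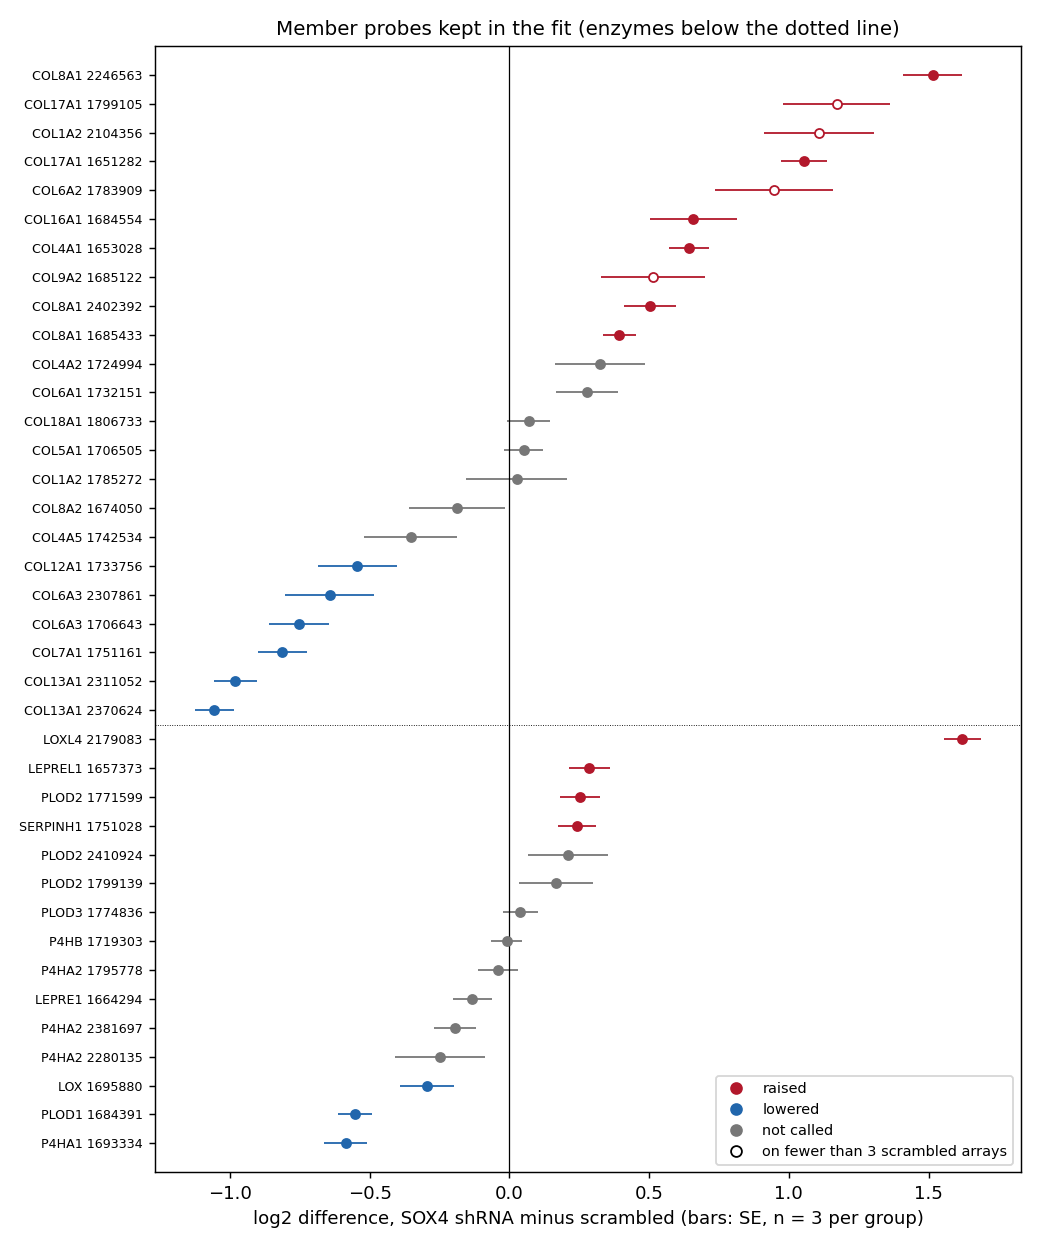
Log2 difference (SOX4 shRNA minus scrambled, x axis) of each of the 38 tested member probes, one per line with its Illumina number, chains above the dotted line and enzymes below it; bars are SE with 3 arrays per group. Red probes rose, blue probes fell and grey probes did not pass the threshold; open points were detected on fewer than 3 scrambled arrays, and LOXL4 (1.62) and COL13A1 (-1.06) lie at the ends.

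The 2 transmembrane collagens with a tested probe moved in opposite directions. COL13A1, a type II transmembrane collagen found at cell adhesion sites, fell on both of its probes. Its probe ILMN_2370624 had log2 signals of 10.39, 10.15 and 10.35 on the scrambled arrays and 9.26, 9.20 and 9.26 on the SOX4 shRNA arrays. Every SOX4 shRNA array lay well below every scrambled array, with a difference of -1.06 ± 0.07 (SE, n = 3 per group), or 2.08-fold lower (adjusted p = 1.2e-11, limma). The other probe, ILMN_2311052, read 10.03, 10.03 and 9.97 against 9.02, 9.21 and 8.85, a difference of -0.98 ± 0.08 (SE, n = 3 per group). In deposited intensity ILMN_2370624 had group means of 1317 ± 58 and 729 ± 22 (SD, n = 3).

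COL17A1 (BP180), the hemidesmosomal collagen of epithelial cells, rose on both probes. Probe ILMN_1651282 read 7.94, 7.83 and 8.01 on the scrambled arrays and 9.08, 8.94 and 8.93 with the SOX4 hairpin. The groups were far apart relative to their spread, with a rise of 1.06 ± 0.08 (SE, n = 3 per group), or 2.08-fold (adjusted p = 2.7e-10, limma). Its other probe, ILMN_1799105, detected on 1 scrambled array, read 5.24, 4.86 and 4.65 against 6.19, 6.05 and 6.02 and gave 1.17 ± 0.19 (SE, n = 3 per group), or 0.38 without background correction. In the authors' values, in which 1 row stands for the gene, the rise was 1.64. On the ILMN_1651282 and ILMN_2370624 probes, the rise of COL17A1 and the fall of COL13A1 were of one size in the main fit. Without background correction they were 0.82 and -0.95, and in the authors' values 1.64 and -1.05.

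The 250 bases before the annotated starts of both genes are shown because these were the only transmembrane chains tested. Capitals mark matches on either strand to the SOX core (ACAAAG or ACAATG), the TATA element (TATAAA), the GC box (GGGCGG) and the core of the hypoxia response element (ACGTG); matches of different motifs do not overlap here. Sequences are from RefSeq, build GRCh38.p14, 5′ to 3′ on the strand of the gene.
COL17A1, chr10:104085881-104086130, minus strand: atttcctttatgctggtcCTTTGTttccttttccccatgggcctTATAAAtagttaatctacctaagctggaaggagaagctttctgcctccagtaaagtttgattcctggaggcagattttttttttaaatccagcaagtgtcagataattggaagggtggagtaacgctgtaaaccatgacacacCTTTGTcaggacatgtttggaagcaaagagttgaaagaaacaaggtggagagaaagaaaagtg
COL13A1, chr10:69801656-69801905, plus strand: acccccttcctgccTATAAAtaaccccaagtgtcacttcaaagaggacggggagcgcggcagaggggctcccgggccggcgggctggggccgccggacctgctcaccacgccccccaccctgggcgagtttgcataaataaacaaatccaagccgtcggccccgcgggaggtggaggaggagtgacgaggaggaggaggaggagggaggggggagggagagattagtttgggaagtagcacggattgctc
The COL17A1 window holds 2 SOX core matches, 232 and 63 bases before the start and both on the opposite strand, and has a GC content of 40.4%. The COL13A1 window holds none and has a GC content of 64.0%. A SOX core match stands in 21.2% of all 35116 promoter windows of this length, and in 2 of the 25 windows found for the 28 tested member symbols, those of COL17A1 and COL9A2. Windows for COL1A2, COL6A1 and COL8A1 were not used here.

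Among network-forming chains, the basement membrane chain COL4A1 rose. Its log2 signal was 8.86, 8.88 and 8.73 on the scrambled arrays and 9.46, 9.46 and 9.49 on the SOX4 shRNA arrays. The 3 knockdown arrays lay close together and above all scrambled ones, with a rise of 0.64 ± 0.07 (SE, n = 3 per group), or 1.56-fold (adjusted p = 1.2e-07, limma). COL4A2, whose product pairs with that of COL4A1 in the same molecule, read 5.90, 6.56 and 6.44 against 6.77, 6.35 and 6.76. The groups overlap, and the difference of 0.32 ± 0.16 (SE, n = 3 per group) did not pass the threshold (adjusted p = 0.14, limma). It was 0.12 without scrambled replicate 1. The remaining type IV chain tested, COL4A5, was 6.13, 6.13 and 6.14 in the controls and 5.50, 6.11 and 5.74 in the knockdown, a difference of -0.35 (adjusted p = 0.12, limma) that passed the threshold without SOX4 shRNA replicate 2 (-0.52).

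COL4A1 and COL4A2 are neighbours transcribed away from each other, and 126 bases lie between their annotated starts. That stretch is shown because both genes share it, on the plus strand, which reads toward COL4A2, with capitals for the same motifs.
COL4A1-COL4A2, chr13:110307158-110307283, plus strand: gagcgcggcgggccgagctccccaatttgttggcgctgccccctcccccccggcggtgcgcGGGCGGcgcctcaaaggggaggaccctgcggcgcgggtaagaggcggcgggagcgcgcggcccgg
The stretch has a GC content of 80.2% and holds 1 GC box. Set against each other array by array, with each gene centred on its scrambled mean, the COL4A1 minus COL4A2 value ran from -0.24 to 0.44 on the scrambled arrays and from 0.17 to 0.59 on the SOX4 shRNA arrays. These ranges overlap, so unequal change of the pair was not detectable with these arrays.

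COL8A1, a short-chain network collagen of vessel walls and the cornea, rose on all 3 of its probes but by different amounts. Probe ILMN_1685433 read 10.36, 10.44 and 10.49 against 10.87, 10.84 and 10.76, a rise of 0.39 ± 0.06 (SE, n = 3 per group; adjusted p = 1.3e-05, limma). Probe ILMN_2402392 read 8.92, 9.01 and 9.03 against 9.64, 9.64 and 9.19, a rise of 0.50 ± 0.09 (SE, n = 3 per group). Probe ILMN_2246563 read 6.78, 6.48 and 6.57 against 8.09, 8.19 and 8.10, a rise of 1.51 ± 0.11 (SE, n = 3 per group), or 2.86-fold. No knockdown array reached down to a control value on any of these probes. Probe ILMN_2246563 thus rose by 1.12 more than ILMN_1685433 in log2. Centred on the scrambled mean, the difference between these probes within an array ran from -0.14 to 0.24 in the controls and from 1.03 to 1.17 in the knockdown. An exact two-sided permutation test over the arrays gave p = 0.10, the smallest that 3 arrays against 3 allow (0.43 adjusted over the 13 pairs of probes compared). The rise on ILMN_2246563 was 0.94 without background correction, and the single COL8A1 row of the authors' values rose by 0.58. The related chain COL8A2 had a difference of -0.19 ± 0.17 (SE, n = 3 per group), with overlapping groups.

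Of the type VI collagen chains, which form beaded filaments around cells, COL6A3 was called lower, COL6A2 higher on a dim probe, and COL6A1 was not called. COL6A3 fell on both probes. On ILMN_1706643 it read 7.47, 7.43 and 7.46 on the scrambled arrays and 6.70, 6.79 and 6.62 on the SOX4 shRNA arrays, with no overlap. That difference was -0.75 ± 0.11 (SE, n = 3 per group), or 1.68-fold lower (adjusted p = 6.5e-06, limma), and the second probe, at 6.11, 6.32 and 6.17 against 5.71, 5.40 and 5.56, gave -0.64 ± 0.16. Without background correction both shrank, to -0.43 and -0.24, and stayed past the threshold. COL6A1 read 7.16, 7.15 and 7.54 against 7.52, 7.63 and 7.54, a difference of 0.28 ± 0.11 (SE, n = 3 per group) that missed the threshold (adjusted p = 0.060, limma) but passed it without scrambled array 2b (0.41). COL6A2 read 4.77, 4.50 and 4.94 against 5.94, 5.48 and 5.64, without overlap. It was detected on no scrambled array and on every SOX4 shRNA array, and was at least 1.38-fold higher (adjusted p = 0.0012, limma). Its mean normalized log2 signals were 4.74 and 5.68, its other probes were detected nowhere, and its call was lost in the authors' values (0.87, adjusted p = 0.19, limma). The fitted COL6A2 difference of 0.95 was 0.29 without background correction. Array by array, the COL6A1 minus COL6A3 value, centred as above, lay between -0.13 and 0.24 in the controls and between 0.98 and 1.09 in the knockdown.

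COL7A1, the chain of the anchoring fibrils that fasten epithelial basement membranes to the stroma, fell. It read 8.55, 8.52 and 8.74 on the scrambled arrays and 7.84, 7.71 and 7.82 on the SOX4 shRNA arrays. The highest knockdown value was below the lowest control value by more than either group's own range, and the difference was -0.81 ± 0.09 (SE, n = 3 per group), or 1.76-fold lower (adjusted p = 7.8e-08, limma). Fibril-associated chains, which sit on the surface of fibrils, changed in both directions. COL12A1 read 6.73, 6.82 and 6.38 against 6.10, 6.17 and 6.03, a difference of -0.54 ± 0.14 (SE, n = 3 per group; adjusted p = 0.0049, limma). It was -0.25 without background correction, and the call was lost in the authors' values (-0.24), in which 1 row stands for the gene; a second COL12A1 probe on the chip was detected on no array. COL16A1 read 5.80, 5.43 and 5.77 against 6.39, 6.21 and 6.38, a rise of 0.66 ± 0.16 (SE, n = 3 per group; adjusted p = 0.0023, limma). It was 0.26 without background correction and 0.99 in the authors' values. COL9A2 read 5.08, 5.11 and 5.07 against 5.60, 5.58 and 5.61, near the floor of the chip but with tight groups. Detected on no scrambled array, it rose to at least 1.30-fold (adjusted p = 0.041, limma), and its call was lost with any one array left out (adjusted p from 0.069 to 0.10, limma). Its fitted difference of 0.51 was 0.15 without background correction and 0.99 in the authors' values.

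**Figure D2:**
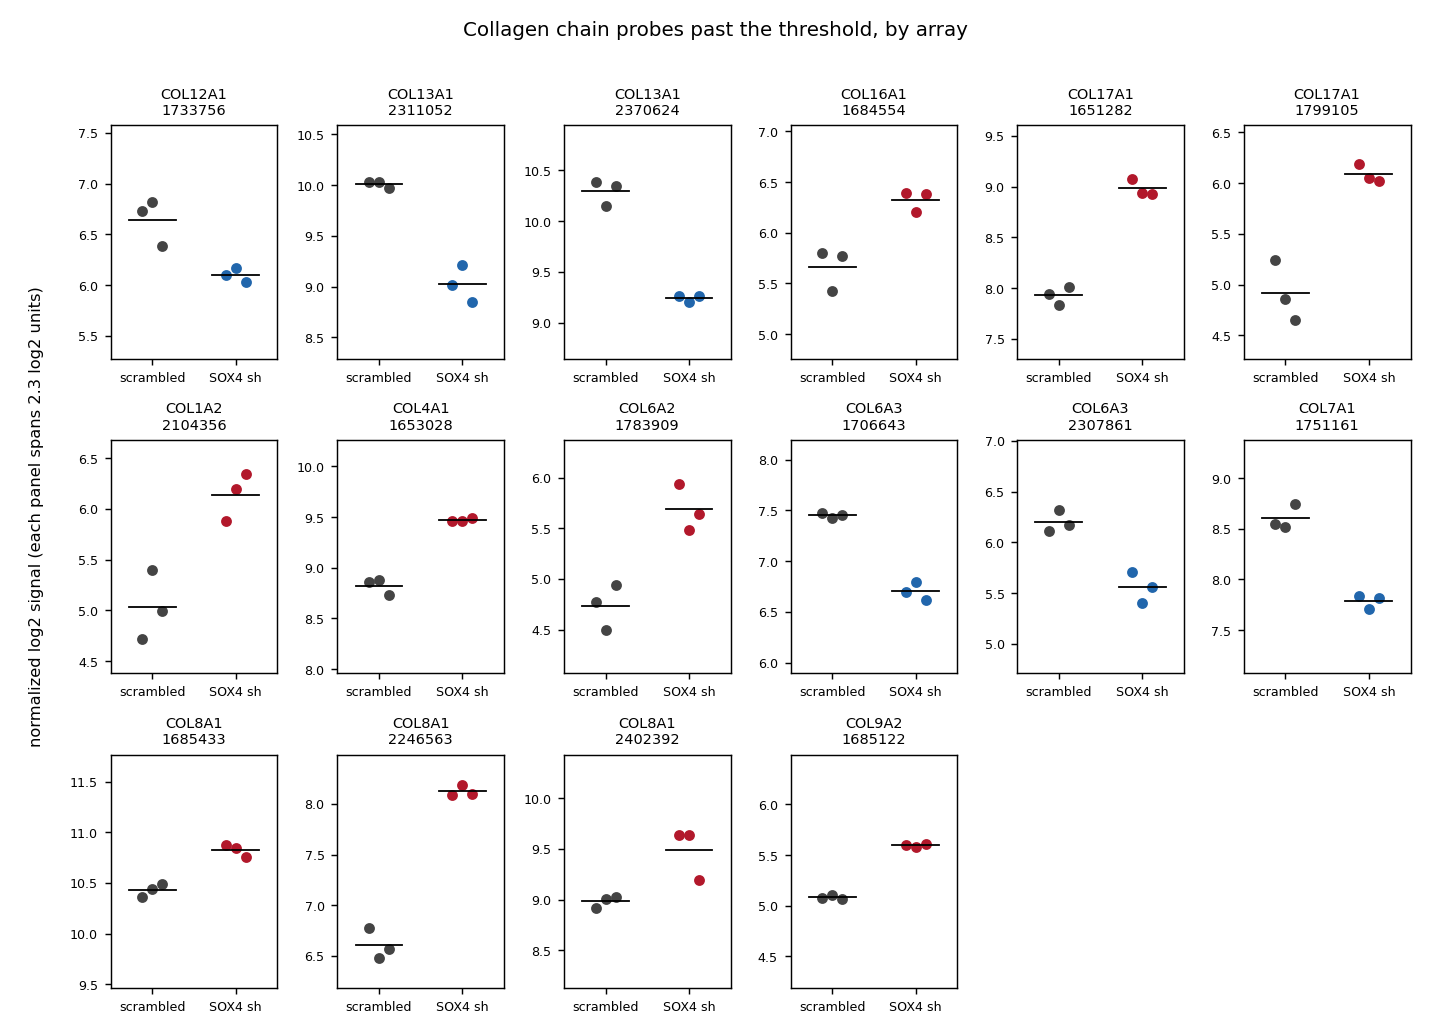
Normalized log2 signal (y axis, all panels of one height in log2 units) of the 16 collagen chain probes past the threshold, each panel one probe with its Illumina number; points are the 3 scrambled arrays (dark grey) and the 3 SOX4 shRNA arrays (red raised, blue lowered), lines are group means. In each panel the groups do not overlap, and the gap is widest for COL8A1 probe ILMN_2246563 (1.51).

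Fibrillar chains, the bulk collagens of stroma, were mostly undetected in these cells, and of the symbols of types I, II, III, V and XI only COL5A1 and COL1A2 were tested. COL5A1, which helps start and size fibrils, read 9.50, 9.72 and 9.71 on the scrambled arrays and 9.67, 9.74 and 9.68 on the SOX4 shRNA arrays. The groups overlapped, and its difference was 0.05 ± 0.07 (SE, n = 3 per group; adjusted p = 0.63, limma). The probes of COL1A2, a chain of type I collagen, disagreed. ILMN_1785272 was detected on every array and read 5.54, 5.45 and 5.58 against 5.51, 5.37 and 5.76, overlapping, with a difference of 0.03 ± 0.18. ILMN_2104356, detected on 1 scrambled array, read 4.72, 5.40 and 4.99 against 5.88, 6.20 and 6.34, a rise of 1.11 ± 0.20 (SE, n = 3 per group; adjusted p = 0.00011, limma). That rise was 0.37 without background correction. Centred on the scrambled mean, the difference between the probes within an array ran from -0.34 to 0.44 in the controls and from 0.87 to 1.31 in the knockdown (exact two-sided permutation p = 0.10, the smallest possible; 0.43 adjusted over 13 pairs of probes). Both probes lay close to background, with deposited group means from 130 to 174 where the median of an array was 119 to 124. The multiplexin COL18A1, a basement membrane collagen, had a difference of 0.07 ± 0.08 (SE, n = 3 per group) with overlapping groups.

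LOXL4, one of the lysyl oxidases that crosslink collagen and elastin, had the largest difference of any member probe. Its log2 signal was 8.95, 8.78 and 8.95 on the scrambled arrays and 10.49, 10.56 and 10.49 on the SOX4 shRNA arrays. The groups were separated by many times their own spread, with a rise of 1.62 ± 0.07 (SE, n = 3 per group), or 3.08-fold (adjusted p = 1.1e-15, limma). In deposited intensity the means were 556 ± 16 and 1612 ± 44 (SD, n = 3), and the authors' deposited table gives a fold of 3.12. That table heads its second mean with the name of another hairpin, but across 22259 genes its folds follow the SOX4 shRNA minus scrambled difference.

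LOX, the founding member of the family, went the other way by a small amount. It read 7.64, 7.57 and 7.64 against 7.26, 7.31 and 7.40, a difference of -0.29 ± 0.10 (SE, n = 3 per group; adjusted p = 0.025, limma). The groups did not overlap, but the call was lost in the authors' values (-0.33) and without scrambled replicate 1, scrambled array 2b, SOX4 shRNA replicate 1 or SOX4 shRNA replicate 2 (-0.29 to -0.26). Without background correction the difference was -0.19. Centred on the scrambled means, the LOXL4 minus LOX value ran from -0.07 to 0.04 in the controls and from 1.81 to 1.97 in the knockdown. LOXL1, LOXL2 and LOXL3 were not detected by any of their probes.

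Of the 7 tested proline hydroxylation probes, 1 rose and 1 fell, a share near that of all tested probes, of which 28.9% were called. P4HA1, the catalytic subunit of the main prolyl 4-hydroxylase and a known hypoxia-induced gene, fell. It read 9.05, 9.16 and 9.26 on the scrambled arrays and 8.53, 8.55 and 8.63 on the SOX4 shRNA arrays, all below the controls. The difference was -0.59 ± 0.08 (SE, n = 3 per group), or 1.5-fold lower (adjusted p = 1.7e-06, limma), and it did not pass in the authors' values (-0.47, adjusted p = 0.23, limma), where 1 row stands for the gene. A second P4HA1 probe on the chip was detected on no array. The isoenzyme subunit P4HA2 did not pass on any of its 3 probes, with differences of -0.04 ± 0.07, -0.19 ± 0.08 and -0.25 ± 0.16 (SE, n = 3 per group). On the probe with -0.19, ILMN_2381697, the groups did not overlap (adjusted p = 0.057, limma). P4HB, the shared disulfide isomerase subunit, read 11.58, 11.66 and 11.65 against 11.70, 11.57 and 11.58, a difference of -0.01 ± 0.05 (SE, n = 3 per group). LEPREL1, a prolyl 3-hydroxylase, read 9.52, 9.34 and 9.33 against 9.78, 9.71 and 9.56 and rose by 0.29 ± 0.07 (SE, n = 3 per group; adjusted p = 0.0047, limma), a call lost when the fit had no intensity trend, by which the spread of a probe is tied to its mean signal (adjusted p = 0.064, limma). Its relative LEPRE1 read 9.13, 9.28 and 9.27 against 9.11, 9.08 and 9.10, just below the controls, with a difference of -0.13 ± 0.07 (adjusted p = 0.17, limma).

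The windows before LOXL4 and P4HA1 are shown because these were the enzymes with the largest rise and the largest fall, with capitals for the same motifs as above.
LOXL4, chr10:98268195-98268444, minus strand: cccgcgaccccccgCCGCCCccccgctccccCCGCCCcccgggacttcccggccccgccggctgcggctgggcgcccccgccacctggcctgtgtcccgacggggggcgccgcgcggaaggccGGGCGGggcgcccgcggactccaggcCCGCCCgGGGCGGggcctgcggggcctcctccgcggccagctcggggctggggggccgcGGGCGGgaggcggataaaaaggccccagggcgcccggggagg
P4HA1, chr10:73096867-73097116, minus strand: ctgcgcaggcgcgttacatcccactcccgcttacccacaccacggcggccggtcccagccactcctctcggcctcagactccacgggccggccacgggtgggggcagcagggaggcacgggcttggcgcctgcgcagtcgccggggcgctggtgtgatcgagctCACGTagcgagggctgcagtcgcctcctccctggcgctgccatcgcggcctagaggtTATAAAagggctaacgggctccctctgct
The LOXL4 window holds 6 GC boxes and has a GC content of 86.4%. The P4HA1 window holds 1 hypoxia core match, 86 bases before the start on the opposite strand, and a TATA element 29 bases before it. Of the 25 member windows, 17 hold a GC box (68.0%, where 42.6% of all windows do), 5 hold the hypoxia core (20.0% against 18.5%) and 6 hold TATAAA (24.0% against 10.7%). The member windows are those of genes that passed the detection filter, while all windows were not so filtered, so the sets are unlike. The 5 with the hypoxia core are those of P4HA1, LOX, PLOD2, COL5A1 and COL12A1. COL5A1 was not called, and the calls of the others were lost in the authors' values. Whether the motif has a part in the differences was not tested.

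Lysine hydroxylation genes split. PLOD1, a lysyl hydroxylase that modifies the helical part of collagen, read 11.36, 11.37 and 11.47 on the scrambled arrays and 10.85, 10.96 and 10.73 on the SOX4 shRNA arrays. All knockdown values were lower, with a difference of -0.55 ± 0.06 (SE, n = 3 per group), or 1.47-fold (adjusted p = 1.3e-07, limma). PLOD2, whose product hydroxylates the ends of the chains where crosslinks form, rose on its probe ILMN_1771599 only. There it read 10.50, 10.80 and 10.45 against 10.84, 10.86 and 10.80, a rise of 0.25 ± 0.07 (SE, n = 3 per group; adjusted p = 0.0086, limma), with no overlap but a narrow gap to scrambled array 2a. Its other probes gave 0.17 ± 0.13 and 0.21 ± 0.14, and the call was lost without scrambled replicate 1 (0.21) or scrambled array 2b (0.19), in the authors' values (0.24) and without the intensity trend (adjusted p = 0.12, limma). PLOD3 had a difference of 0.04 ± 0.06 (SE, n = 3 per group). Centred on the scrambled means, the PLOD2 minus PLOD1 value ran from -0.21 to 0.25 in the controls and from 0.72 to 0.89 in the knockdown. The chaperone SERPINH1 (HSP47) read 9.88, 9.71 and 9.93 against 10.02, 10.10 and 10.12 and rose by 0.24 ± 0.07 (SE, n = 3 per group; adjusted p = 0.0079, limma), a call lost without scrambled array 2a (0.18), narrowly in the authors' values (0.25), and without the intensity trend (adjusted p = 0.074, limma).

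**Figure D3:**
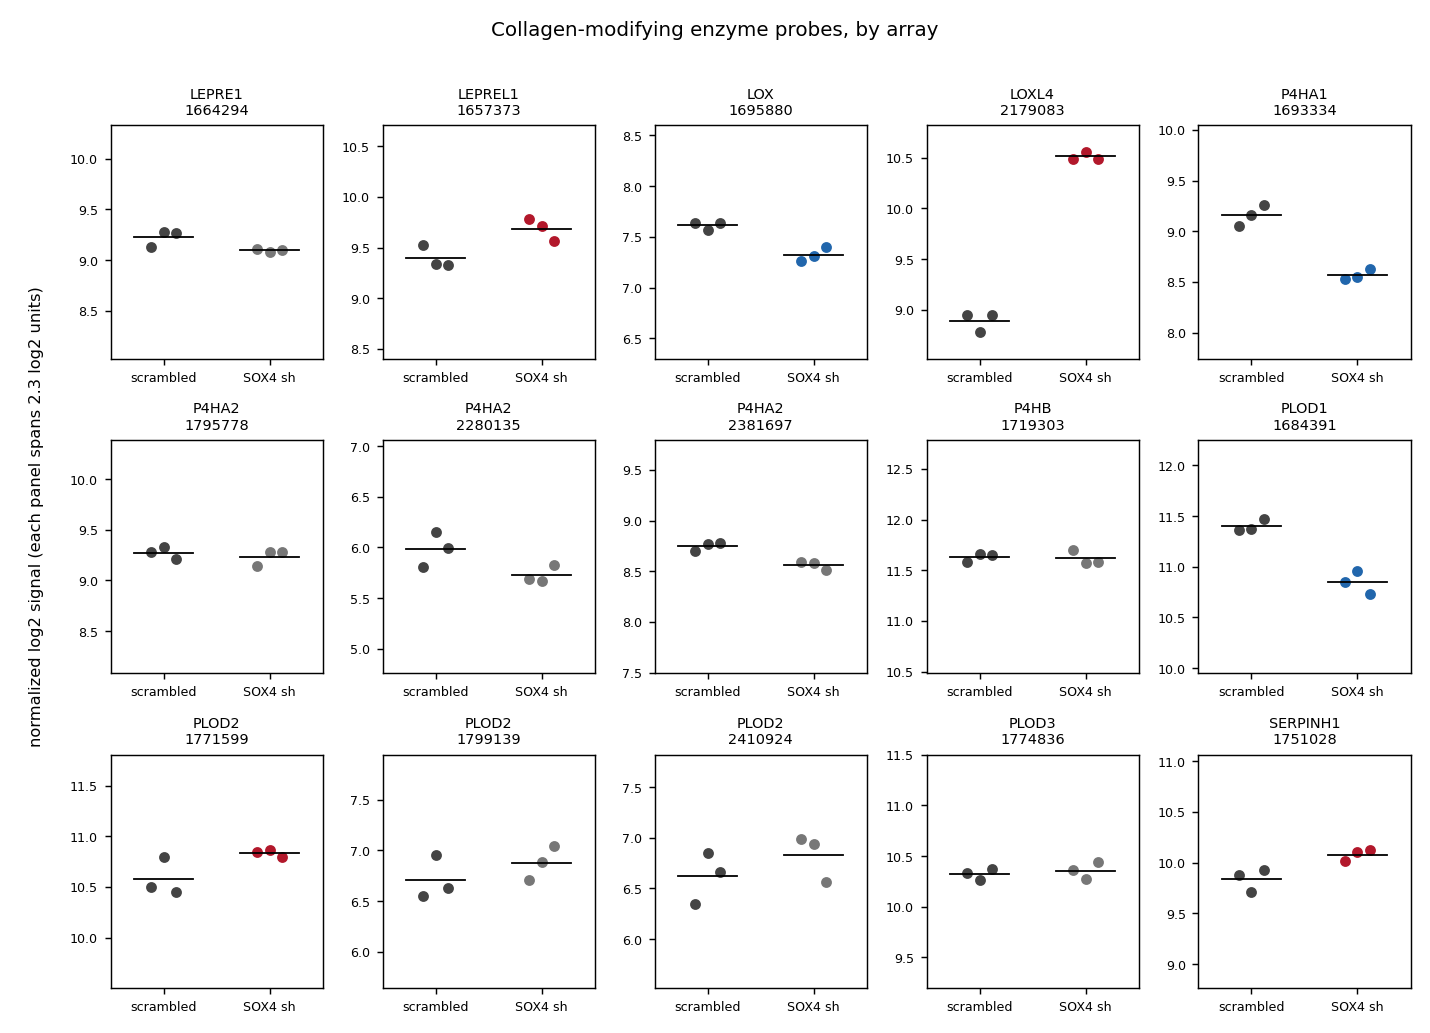
Normalized log2 signal (y axis, all panels of one height in log2 units) of the 15 tested enzyme and chaperone probes, each panel one probe with its Illumina number; points are the 3 scrambled arrays (dark grey) and the 3 SOX4 shRNA arrays (red raised, blue lowered, grey not past the threshold), lines are group means. LOXL4 stands apart (1.62), and the other changes are 0.59 or less in size.

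The genes set against each other within arrays above come from 10 pairs of one collagen type or enzyme family, which were put together after their values were seen, so their values describe those pairs only. Of all 13 pairs of tested probes within 7 genes, the within-array difference did not overlap between the groups in 3, which were 1 pair of COL1A2 and 2 pairs of COL8A1. The 10 pairs that overlapped include 6 of P4HA2 and PLOD2, whose probes with 1 exception were not called.

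Of 10 tested probes for folding partners outside the member list, 1 rose and 1 fell. GLT25D1, which adds galactose to hydroxylysine, rose by 0.36 ± 0.06 in log2 and the endoplasmic reticulum chaperone HSPA5 fell by 0.63 ± 0.08 (SE, n = 3 per group). Of 14 probes for secretion genes, 3 rose and 1 fell. The coat proteins SAR1A, SEC13 and SAR1B rose by 0.25, 0.23 and 0.20, each on 1 probe, and the transcription factor CREB3L2 fell by 0.19. Probes for propeptide processing (3 tested, among them BMP1) and for fibril-associated proteins (2 tested, LUM and FBLN1) had 0 calls in limma, with LUM the 1 probe of these at an unadjusted p under 0.05 (0.022), and SPARC and FN1 were not detected on any array. Of 13 probes for collagen receptors and turnover, MMP9, a gelatinase detected on no scrambled array, rose to at least 1.90-fold and the collagenase MMP1 fell by 1.80 ± 0.16 (SE, n = 3 per group). The integrin subunits ITGB1, ITGA2 and ITGA10 and the receptor DDR1 did not pass. Of all 42 probes in these lists 5 rose and 3 fell, where 14.4% of all probes rose and 14.4% fell.

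The authors' own log2 values gave the same directions for all 18 member genes called here. In those values 12 of 58 member genes passed the threshold in limma, 8 of them higher and 4 lower, where 6.23% of all 34687 genes did, 3.21% higher and 3.02% lower. All 12 were among the 18, in the same direction. They were COL13A1, COL16A1, COL17A1, COL1A2, COL4A1, COL6A3, COL7A1, COL8A1, COL9A2, LEPREL1, LOXL4 and PLOD1. The 6 called only here were COL12A1, COL6A2, LOX, P4HA1, PLOD2 and SERPINH1.

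**Figure D4:**
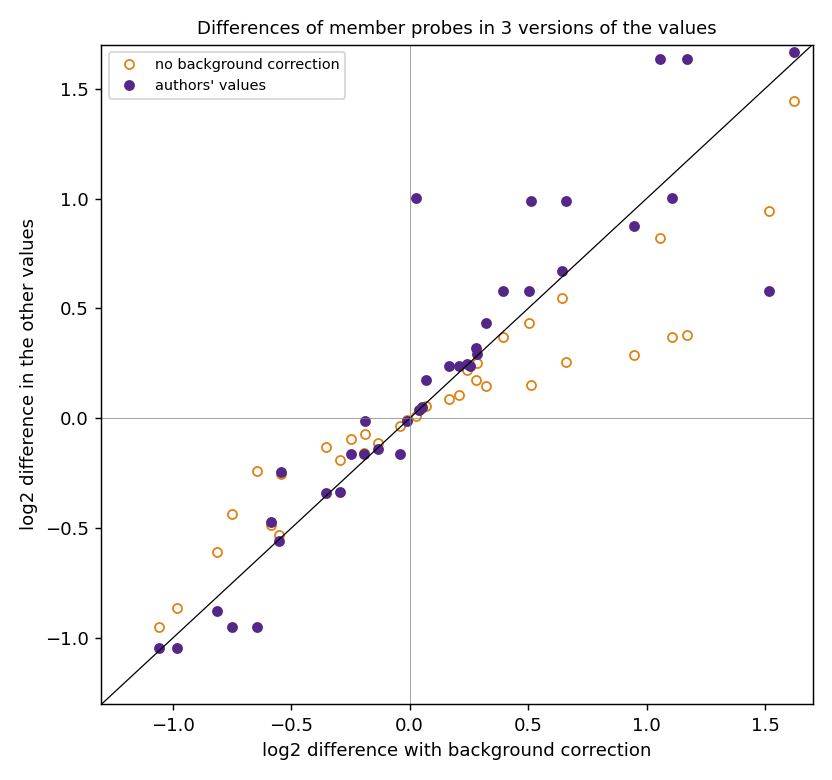
Log2 difference (SOX4 shRNA minus scrambled) of each tested member probe with background correction (x axis) against the same probe without it (open orange) and against its gene in the authors' log2 values (filled purple), with the line of equality. Values without background correction lie nearer to 0, most of all for dim probes such as that of COL6A2 (0.95 against 0.29), while the authors' values fall on both sides of the line.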

How the data were processed

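Biotin-labelled total RNA from 6 MDA-MB-231 samples was measured on HumanHT-12 v4 BeadChips. GenomeStudio 2011.1 is named in the submitters' processing notes. The authors deposited probe intensity values, neither background-subtracted nor normalized, with a detection p-value beside each. They also deposited log2 values per gene symbol and a table of group means with a linear fold; per the file headers these come from RMA in ArrayStar, and their column medians run from 2.80 to 2.82. Among its intensity columns, a pair of scrambled ones carry the heading of replicate 2 and are called 2a and 2b. They were not copies: at most 1 probe had identical values on any pair of arrays. The number of per-sample columns left out was 0.

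Background was fitted from the detection p-values with neqc (offset 16) in limma 3.58.1 under R 4.3.3, followed by quantile normalization and log2. Every probe whose detection p was under 0.01 on 3 or more of the 6 arrays (33.2%) was tested by itself in limma's lmFit, then eBayes with an intensity trend. Adjustment was by Benjamini-Hochberg over all 15717 probes, with a threshold of 0.05. A probe with no array above background in 1 group has a fold bound: the floor of each dim array was its lowest detected signal, or the probe's own where higher, and these floors were averaged on the log2 scale. The bound makes no allowance for the spread between arrays, so the true fold may be smaller. The fit was tested on simulated data.

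All members were described. Up to 3 raised and 3 lowered genes of every other list were named, with further list genes chosen after their values were seen. Members and lists were chosen with earlier results of these data known. The other settings tried were cyclic loess, no background correction, the authors' values, looser and stricter detection filters, the brightest probe per gene, no intensity trend, the replicate block, a fold minimum of 1.5 and the removal of each array in turn. Chip symbols were used; 25 of the 28 tested symbols matched a RefSeq promoter (GRCh38.p14), for which the first listed start was taken. Replicate numbers were not used to pair the samples in the main fit. Figures were made with matplotlib 3.10.9 in Python 3.11.15.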

Additional observations from a re-analysis of the deposited data

How the results depend on the processing

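Of the 23 called member probes, 15 kept direction and call under each of the 13 to 15 alternatives that gave them a value, the fold minimum not counted, and none changed sign. The raised count was 14 and the lowered count 9. In the authors' values, counted per gene, they were 8 and 4, with 9 chain and 3 enzyme genes called (16 and 7 probes before) and 2160 genes in all (4540 probes before). A fold minimum of 1.5 left 8 raised and 6 lowered probes, 2 of them for enzymes, and 1124 of all probes; it dropped PLOD1 and COL8A1 ILMN_1685433 and ILMN_2402392, which no other alternative did. Without the intensity trend 4 enzyme probes were called, not LEPREL1, PLOD2 or SERPINH1. With one array left out the raised count ran from 12 to 13, the lowered from 8 to 9, chain calls from 15 to 16, enzyme calls from 5 to 7 and all calls from 3729 to 3892. The replicate block, fitted only on the authors' values, whose columns carry all 3 replicate numbers, gave 8 raised and 4 lowered genes. Of these genes 9 were for chains and 3 for enzymes, with 1944 calls in all. Same-numbered samples deviated with correlations of 0.005, 0 and -0.006, so no shared deviation was seen. This cannot show whether they were handled together. The probes that changed sign were uncalled, each with 1 array left out, over which COL1A2 ILMN_1785272 ran from -0.082 to 0.111, COL5A1 from -0.02 to 0.092, P4HA2 ILMN_1795778 from -0.069 to 0.007, P4HB from -0.053 to 0.014 and PLOD3 from -0.004 to 0.082. The cause of the fewer calls in the authors' values was not tested. No fit had the slide as a block, since the files used here name none. Dim probes limit what can be seen: without background correction their differences were smaller.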
